A study of Mus musculus with 15 samples.

Results

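Broad sites of Polycomb repressive complex 1 (PRC1) in mouse cells were taken as merged regions of at least 5000 bp that held a peak of each of 5 ChIP-seq lists. The lists were MES Mel18, MES Cbx2, MES Ring1b, MES RYBP and ESC Mel18. Overlapping peaks of all 5 lists were merged on chromosomes 1 to 19, which gave 11871 regions. Of these, 1880 held a peak of every list, and 629 of the 1880 reached 5000 bp. The other 1251 were narrower, and are given below as the closest set for comparison. Both the presence of peaks and the width of the merged region chose the 629 regions, so their widths and their occupancy are descriptions, and nothing was tested with them.

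The study holds 15 samples, 6 of ChIP-seq and 9 of RNA-seq, and the IgG ChIP-seq sample and the RNA-seq samples were not analysed here. ESCs were E14Tg2A mouse embryonic stem cells kept undifferentiated with 2i and LIF, and MES were early cardiac mesoderm precursors made from that line with BMP4, typically at 0.1 to 0.3 ng/ml. The labels name no genetic change in the ChIP-seq samples, and 1 antibody lot against Mel18 served both cell states. Each list came from 1 sample, the read depth was unknown, and whether cultures were pooled was not given, so no difference between lists could be set against replicate error.

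PRC1 places ubiquitin on histone H2A and compacts chromatin at silent developmental genes, mostly at promoters rich in CpG. Ring1b is its catalytic subunit, and Mel18, also called Pcgf2, is a PCGF partner of Ring1b that is found in canonical PRC1. Cbx2 is the subunit of canonical PRC1 that reads methylated histone H3 through its chromodomain and compacts nucleosomes. RYBP takes the place of CBX proteins in variant PRC1. In embryonic stem cells the longest PRC1 domains are known at Hox clusters and at other genes of lineage transcription factors.

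Promoters of 5 genes that lie in broad regions are shown because the results below turn on their loci and because CpG density is the sequence feature that PRC1 sites are best known for. They are the 250 bases before the gene start, 5′ to 3′ on the gene's strand, from RefSeq on build GRCm38.p6, with each CpG in capitals. The build differs from the mm9 build of the peaks, so the coordinates of these promoters cannot be set against those of the regions.
Sox2 (chr3:34649745-34649994, plus strand): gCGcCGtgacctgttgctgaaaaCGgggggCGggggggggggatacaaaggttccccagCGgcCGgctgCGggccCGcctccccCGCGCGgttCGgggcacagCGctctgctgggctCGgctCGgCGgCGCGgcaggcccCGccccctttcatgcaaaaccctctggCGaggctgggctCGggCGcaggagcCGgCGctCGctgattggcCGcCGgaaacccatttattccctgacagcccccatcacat
Gbx2 (chr1:89931177-89931426, minus strand): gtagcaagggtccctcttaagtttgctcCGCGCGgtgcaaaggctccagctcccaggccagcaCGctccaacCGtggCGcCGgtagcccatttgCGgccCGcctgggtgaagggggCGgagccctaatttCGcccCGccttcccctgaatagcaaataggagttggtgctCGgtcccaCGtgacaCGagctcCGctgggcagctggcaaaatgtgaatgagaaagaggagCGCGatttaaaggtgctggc
Hand2 (chr8:57320733-57320982, plus strand): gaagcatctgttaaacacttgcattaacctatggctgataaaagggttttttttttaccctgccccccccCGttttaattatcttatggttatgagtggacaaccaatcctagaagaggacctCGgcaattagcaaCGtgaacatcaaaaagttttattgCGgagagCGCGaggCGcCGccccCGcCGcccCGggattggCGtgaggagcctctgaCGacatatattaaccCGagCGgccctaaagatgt
Hoxd13 (chr2:74667975-74668224, plus strand): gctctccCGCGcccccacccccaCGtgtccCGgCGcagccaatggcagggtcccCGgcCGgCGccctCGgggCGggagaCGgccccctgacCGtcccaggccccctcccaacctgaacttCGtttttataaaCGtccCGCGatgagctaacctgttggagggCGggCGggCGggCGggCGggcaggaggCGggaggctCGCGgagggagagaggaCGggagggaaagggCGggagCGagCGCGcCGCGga
Cbx8 (chr11:119040914-119041163, minus strand): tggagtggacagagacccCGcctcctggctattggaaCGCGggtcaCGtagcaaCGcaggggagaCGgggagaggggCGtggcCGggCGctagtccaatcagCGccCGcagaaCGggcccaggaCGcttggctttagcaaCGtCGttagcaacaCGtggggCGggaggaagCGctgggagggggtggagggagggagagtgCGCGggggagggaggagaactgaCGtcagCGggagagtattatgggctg
These windows held 27 CpG for Sox2, 18 for Gbx2, 15 for Hand2, 31 for Hoxd13 and 22 for Cbx8. The median over the 32851 RefSeq promoters was 6 CpG in the same window, with an upper quartile of 16. RefSeq promoters were at hand for 41 of the 57 genes named in broad regions. Their 60 promoters had a median of 13 CpG, with quartiles of 7.75 and 21. The genes were picked by name after the regions had been seen, so this is a description of those loci and not of all 629 regions.

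The broad regions spanned 6785242 bp in all. Their median width was 7854 bp, with quartiles of 6012 and 12785 bp and a largest width of 122955 bp, against a median of 3175 bp in the narrower regions. They held a large part of what each list covered on chromosomes 1 to 19. For MES Mel18, 932 of 4048 peaks (23.0%) lay in them, and these peaks made up 51.5% of the bases under MES Mel18 peaks. For Cbx2 the shares were 20.6% of peaks and 49.2% of bases. For Ring1b they were 12.5% of peaks and 36.6% of bases, and for RYBP 17.4% of peaks and 27.3% of bases. For ESC Mel18 they were 20.8% of peaks and 39.8% of bases. Around the threshold, the members just inside measured 5003, 5003 and 5007 bp and the regions just outside 4996, 4993 and 4980 bp.

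The subunits covered the broad regions to unequal extents, with Cbx2 covering the most and RYBP the least. Cover is the share of a region's length that lies under peaks of a list. In the median region MES Mel18 covered 90.4%, Cbx2 99.2%, Ring1b 80.1%, RYBP 52.0% and ESC Mel18 61.7%. The middle 50% of regions lay between 95.2 and 100% for Cbx2, and between 40.1 and 62.9% for RYBP, so these ranges did not overlap. They did not overlap in narrower regions either, at 85.6 to 100% for Cbx2 and 47.9 to 71.7% for RYBP. In the median narrower region MES Mel18 covered 80.4%, Cbx2 95.0%, Ring1b 68.7%, RYBP 59.6% and ESC Mel18 66.5%. Cover by MES Mel18, Cbx2 and Ring1b thus had the higher median in broad regions, and cover by RYBP and ESC Mel18 the higher median in narrower ones. These gaps follow in part from how the regions were drawn, since wide peaks of any list bring a region past the threshold.

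**Figure D1:**
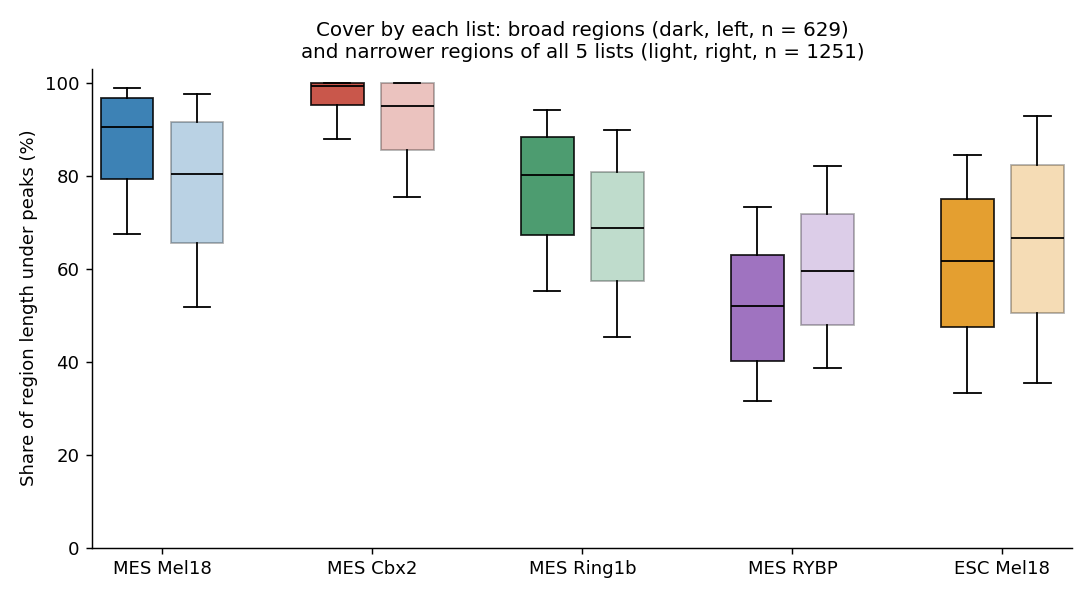
Share of each region's length under peaks of each list (y axis, percent), for broad regions (dark boxes, left) and narrower regions of all 5 lists (light boxes, right). Boxes show quartiles, lines inside them medians and whiskers the range from the 10th to the 90th percentile. Cbx2 boxes lie highest and RYBP boxes lowest in broad regions, with medians of 99.2 and 52.0%.

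Cbx2, the chromodomain subunit, covered more of the region than every other list in 469 of 629 broad regions (74.6%, exact Clopper-Pearson 95% interval 71.0 to 77.9), against 777 of 1251 narrower regions (62.1%). MES Mel18 did so in 117 regions, Ring1b in 17, RYBP in 5 and ESC Mel18 in 21. Cbx2 covered 241 regions from end to end, against 20 for MES Mel18, 1 for Ring1b, 1 for RYBP and 4 for ESC Mel18. It also set 804 of the 1258 region edges (63.9%), whereas RYBP set 30 (2.38%). In narrower regions Cbx2 covered 25.3% from end to end, against 38.3% of broad ones. It set 49.5% of the edges of narrower regions and RYBP 6.2%, so Cbx2 set the larger share in both sets. Cbx2 lay in a single peak in 534 broad regions (84.9%), against 98.4% of narrower regions.

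Because Cbx2 peaks drew so many edges, the rule itself raised the cover by Cbx2. In 150 regions (23.8%), Cbx2 was the only list with a single peak of 5000 bp or more. In 77 regions (12.2%) every list had such a peak, and in 46 (7.31%) no list had one, the width having come from overlapping shorter peaks. When regions were instead drawn from the other 4 lists, a setting added once the results had been seen, 501 regions were wide enough. In these, MES Mel18 covered a median of 99.7%, Cbx2 99.3%, Ring1b 90.1%, RYBP 57.2% and ESC Mel18 71.8%. Without Cbx2 in the rule, Mel18 and Cbx2 in MES had nearly equal medians, and RYBP still had the lowest. Cover counts only bases inside a region, so Cbx2 peaks beyond the edges of the other 4 lists were cut off. Edges no longer drawn by Cbx2 were left to these lists, MES Mel18 among them, which raises their own cover. The near equality is thus partly built in, and it cannot show whether Cbx2 reached further than MES Mel18.

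In broad regions RYBP, the variant PRC1 subunit, had a shorter median peak than the other MES subunits. RYBP covered less of the region than each of the other lists in 457 of 629 broad regions (72.7%, interval 69.0 to 76.1), against 561 of 1251 narrower regions (44.8%). ESC Mel18 did so in 139 broad regions (22.1%), against 27.6% of narrower ones. RYBP covered less than Cbx2 in 621 broad regions (98.7%), against 93.2% of narrower ones. It covered less than Ring1b in 574 (91.3%), against 67.8%, and less than ESC Mel18 in 478 (76.0%), against 62.7%. RYBP peaks in broad regions had a median width of 2262 bp, against 1749 bp in narrower regions and 1336 bp in the remaining regions. Cbx2 peaks had a median of 6795 bp in broad regions, against 2805 and 1646 bp in those sets. The medians were 4770, 2208 and 1278 bp for MES Mel18 and 3505, 1802 and 1035 bp for Ring1b. In the remaining regions RYBP peaks were thus longer by median than those of MES Mel18 and Ring1b. RYBP lay in a single peak in 301 broad regions (47.9%), against 96.7% of narrower ones. It lay in 3 or more peaks in 160 (25.4%), against 0 of 1251 narrower regions. Cbx2 lay in 3 or more peaks in 15 broad regions (2.38%), against 0 narrower ones, and ESC Mel18 in 162 (25.8%), against 1.20%. Width chose the broad regions, so these peak numbers are descriptions.

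The lists were nested in one another. In the median broad region, all bases under RYBP peaks also lay under MES Mel18, Cbx2 and Ring1b peaks, and 97.3% lay under ESC Mel18 peaks. In the other direction, RYBP peaks lay on 58.8% of MES Mel18 bases, 53.5% of Cbx2 bases, 67.0% of Ring1b bases and 79.5% of ESC Mel18 bases. These shares follow the lengths of the lists, since RYBP lay within the others. Over the 629 regions, Spearman's rho of RYBP cover was 0.49 with ESC Mel18 cover, 0.25 with Ring1b, 0.04 with MES Mel18 and -0.02 with Cbx2. Ring1b cover had a rho of 0.42 with ESC Mel18 and 0.67 with MES Mel18. The points share region length and edges.

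A base of a broad region was most often under peaks of all 5 lists. Such bases made up 3.12 Mb or 45.9% of the total length, and the median region had 44.6% of its length (3488 bp) in this shared core. A further 15.6% of bases lay under MES Mel18, Cbx2 and Ring1b alone, and 13.1% under these with ESC Mel18 and without RYBP. In narrower regions the corresponding shares were 43.9, 4.22 and 7.56%. Bases under Cbx2 alone made up 7.51% of the length of broad regions and 10.7% of that of narrower ones. No base was shared by all lists in 3 broad regions (0.477%), against 28 narrower ones (2.24%).

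The outer parts of broad regions were held by Cbx2 and, less often, by MES Mel18. When each region was divided into 20 bins of equal length, the middle 2 bins were covered to 96.9% by MES Mel18, 99.7% by Cbx2, 94.7% by Ring1b and 76.4% by RYBP, and to 84.0% by ESC Mel18. In the outermost bin at each end, MES Mel18 covered a mean of 46.4%, Cbx2 80.6%, Ring1b 23.0%, RYBP 7.05% and ESC Mel18 13.0%. Every list had its lowest cover at the ends, and the order of the lists there was the same as in their median cover. In narrower regions the outermost bins were covered to 61.5% by Cbx2, 33.9% by MES Mel18, 16.9% by Ring1b, 11.1% by RYBP and 19.4% by ESC Mel18. Cbx2 and MES Mel18 thus led at the ends of both sets, and ends lie by construction where the outermost peaks stop. The middle 2 bins of narrower regions were covered to 94.4% by RYBP and 91.3% by ESC Mel18. There the other lists covered 96.3% (MES Mel18), 99.8% (Cbx2) and 94.7% (Ring1b).

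**Figure D2:**
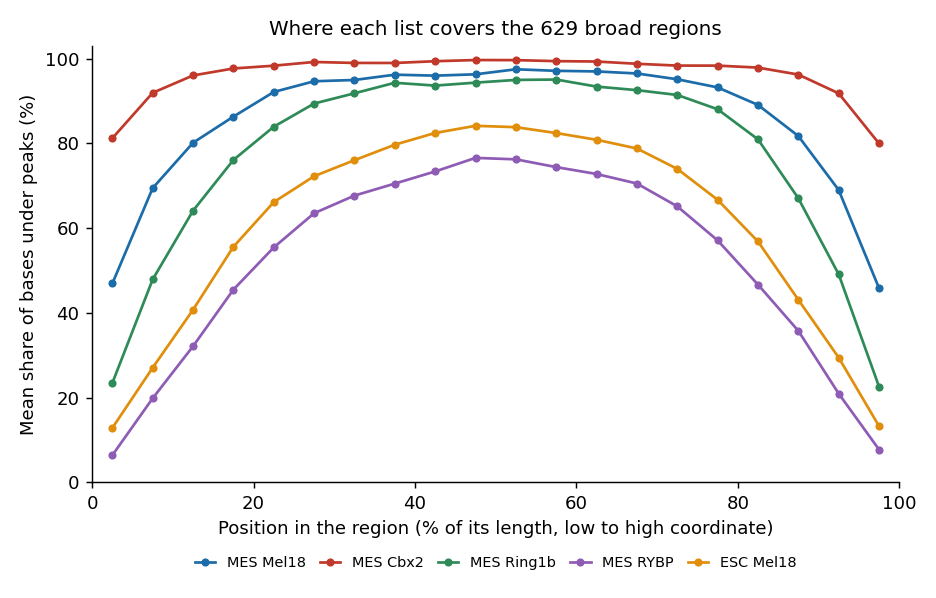
Mean share of bases under peaks of each list (y axis, percent) in 20 equal bins along the 629 broad regions (x axis, percent of region length). Lines stand for lists, and cover by RYBP and ESC Mel18 is lowest at the ends, at 7.05 and 13.0% in the outermost bins.

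Wider regions were covered more fully by MES Mel18 and Ring1b but not by RYBP. In 157 regions of 5000 to 6000 bp, median cover was 84.4% for MES Mel18, 70.4% for Ring1b, 54.9% for RYBP and 56.1% for ESC Mel18. In 59 regions of 20000 bp or more, the medians were 96.9% for MES Mel18, 90.4% for Ring1b, 52.1% for RYBP and 62.3% for ESC Mel18. ESC Mel18 cover was highest in regions of 12000 to 20000 bp, with a median of 69.4%. Over the 629 regions, Spearman's rho between width and cover was 0.48 for Ring1b, 0.43 for MES Mel18, 0.11 for Cbx2, -0.02 for RYBP and 0.14 for ESC Mel18. The width is that of the merged peaks of these same lists and took part in the rule, so these values are descriptions and not a test. The widest class had a median of 5 RYBP peaks and 4 ESC Mel18 peaks per region, against 2 MES Mel18 peaks, 1 Cbx2 peak and 3 Ring1b peaks.

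**Figure D3:**
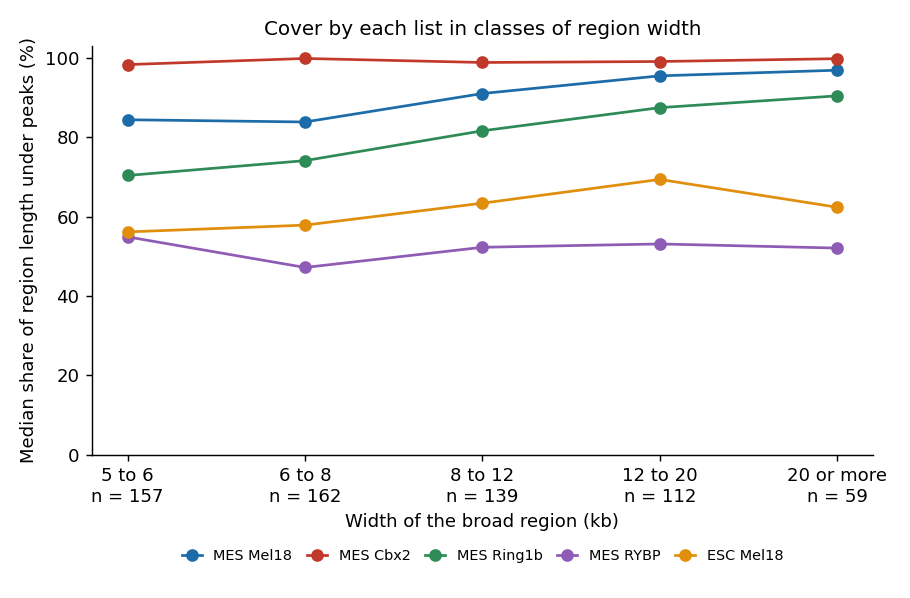
Median share of region length under peaks of each list (y axis, percent) in 5 classes of region width (x axis, kb, with the number of regions). Lines for MES Mel18 and Ring1b end at 96.9 and 90.4% in the widest class, and the line for RYBP ends at 52.1%.

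Mel18 covered longer stretches of the broad regions in MES than in ESCs. MES Mel18 peaks had a median length of 6569 bp per region and ESC Mel18 peaks 4735 bp, and the median ratio of MES to ESC length was 1.39, with quartiles of 1.19 and 1.77. MES Mel18 covered more than ESC Mel18 in 585 of 629 broad regions (93.0%, interval 90.7 to 94.9), whereas the share was 75.2% over all 2479 merged regions with both Mel18 lists. It covered at least 1.5 times the ESC length in 265 regions (42.1%), where the share over all 2479 regions was 30.4%. ESC Mel18 covered at least 1.5 times the MES length in 9 regions (1.43%), against 5.61% over all 2479. In narrower regions the median ratio was 1.19, and MES Mel18 covered more in 897 of 1251 (71.7%). Both Mel18 lists took part in the rule, and a wide MES Mel18 peak can bring a region past 5000 bp, so these shares are not a test of the broad regions.

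Regions were also drawn without either Mel18 list. These still rest on MES peaks, since Cbx2, Ring1b and RYBP were all measured in MES, so they are not free of a choice that favours length in MES. With Cbx2, Ring1b and RYBP peaks alone, 627 regions of 5000 bp or more held all 3 subunits. Of these, 33 had no ESC Mel18 peak and 2 no MES Mel18 peak. MES Mel18 covered more than ESC Mel18 in 592 of the 627 (94.4%), the 33 regions without an ESC peak included, and the median ratio was 1.39 with a missing ESC peak ranked highest. The cell states had 1 sample each, and peak length also depends on read depth and on the calling of peaks, whose part in the ratio was not tested.

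ESC Mel18 also lay in more peaks than MES Mel18. It had 1335 peaks in the broad regions against 932 of MES Mel18, and 6411 against 4048 on chromosomes 1 to 19. The broad regions held 20.8% of the ESC Mel18 peaks and 23.0% of the MES Mel18 peaks. The larger total of ESC Mel18 peaks was thus not particular to broad regions. In 256 broad regions (40.7%) there were fewer MES than ESC Mel18 peaks, against 16.1% of narrower regions. There were more in 106 broad regions (16.9%), against 4.80% of narrower ones. In 177 broad regions (28.1%) a single MES Mel18 peak stood with 2 or more ESC Mel18 peaks, against 15.9% of narrower regions.

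**Figure D4:**
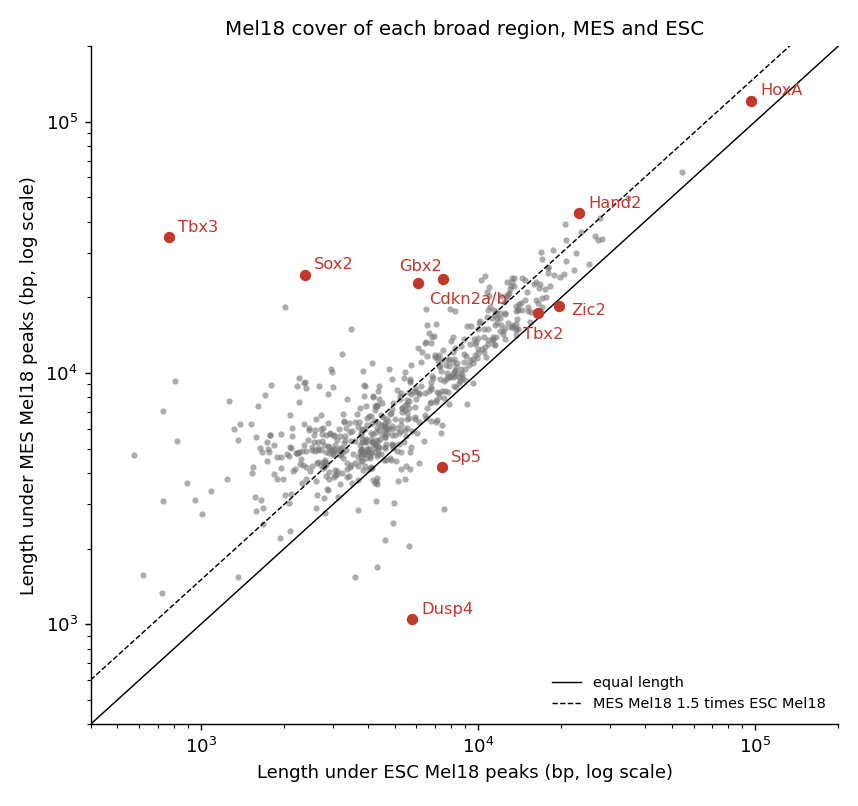
Length under MES Mel18 peaks (y axis, bp, log scale) against length under ESC Mel18 peaks (x axis, bp, log scale) in each of the 629 broad regions, with the loci described in the text in red. The solid line marks equal lengths and the dashed line a ratio of 1.5, and 585 points lie above the solid line.

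The authors' score, used only to rank peaks within a list, was high in most broad regions. MES Mel18 had a peak of its top score quartile in 554 of 629 regions (88.1%), against 26.6% of narrower regions, and Cbx2 in 545 (86.6%), against 19.4%. Ring1b had one in 609 (96.8%), against 62.4%, RYBP in 493 (78.4%), against 41.6%, and ESC Mel18 in 537 (85.4%), against 44.1%. All 5 lists had a top-quartile peak in 393 broad regions (62.5%), against 118 of 1251 narrower regions (9.43%). The best peak of each list in a region was counted, so regions with more peaks had more chances of a top-quartile one. Width had also chosen the regions, so these shares are not a test.

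The widest regions lay at genes of lineage transcription factors. Gene names given here come from general knowledge of where well-studied genes lie on mm9, since the files name no genes. Hox genes specify position along the body axis, and 4 of the 10 widest regions lay in their clusters. The HoxA region on chromosome 6 (52099302 to 52222256, 122955 bp) was covered to 98.5% by MES Mel18, 99.7% by Cbx2, 98.3% by Ring1b and 66.4% by RYBP, and to 78.7% by ESC Mel18. It held 3 MES Mel18 peaks, 20 RYBP peaks and 25 ESC Mel18 peaks, and its shared core of 77752 bp was the longest of all regions. The HoxD cluster gave regions of 63392 and 37188 bp on chromosome 2 (74491641 to 74555032 and 74557331 to 74594518). MES Mel18 covered 99.4% of the first, which holds Hoxd13, and ESC Mel18 86.0%. At the Hoxb13 end of the HoxB cluster, on chromosome 11 (96029548 to 96070094), MES Mel18 covered 96.3%, RYBP 43.3% and ESC Mel18 50.8%.

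The other regions among the 10 widest lay at single genes or gene pairs. Nr2f2, a nuclear receptor of venous and atrial development, lay in a region of 50629 bp on chromosome 7 (77467489 to 77518117), with 98.0% cover by MES Mel18, 53.7% by RYBP and 68.8% by ESC Mel18. Hand2, a basic helix-loop-helix factor required for heart and limb formation, lay in 43701 bp on chromosome 8 (59789638 to 59833338). There MES Mel18 covered 43109 bp in 2 peaks and ESC Mel18 23230 bp in 11 peaks. The pair Zic1 and Zic4, zinc finger genes of the cerebellum and somites, lay in 41634 bp on chromosome 9 (91244596 to 91286229), with cover of 99.7% by MES Mel18 and 66.5% by ESC Mel18. The region of Dlx5, a homeobox gene of limb and jaw, measured 36914 bp on chromosome 6 (6797386 to 6834299), and that of Nfix, a nuclear factor I gene, 35841 bp on chromosome 8 (87292043 to 87327883). In the Nfix region MES Mel18 cover was 79.3% and Ring1b cover 71.1%, the lowest of the 10 widest for both, while Cbx2 covered all of it.

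Tbx3 stood apart from the other wide regions. Tbx3 is a T-box repressor of heart conduction tissue and limb that is also known for its expression in naive embryonic stem cells. Its region on chromosome 5 (120104701 to 120141467) measured 36767 bp and was covered to 94.2% by MES Mel18, 100% by Cbx2, 90.4% by Ring1b and 45.5% by RYBP. ESC Mel18 had a single peak of 767 bp there, in its lowest score quartile, which covered 2.09% of the region. The MES to ESC ratio of 45.1 was the highest of the 629 regions, and the next was 11.6.

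Few other regions had so little ESC Mel18. ESC Mel18 covered under 20% in 19 broad regions (3.02%), against 1.28% of narrower ones. Of the 19, 16 held a single ESC Mel18 peak. MES Mel18 covered a median of 81.9% of these 19, Cbx2 99.1%, Ring1b 80.4%, RYBP 45.4% and ESC Mel18 13.1%. Sox2, a transcription factor of pluripotency and of neural progenitors, lay in 25886 bp on chromosome 3 (34546523 to 34572408). MES Mel18 covered 24554 bp of it and ESC Mel18 2381 bp, a ratio of 10.3. A region at 30121296 to 30132666 of chromosome 6 had a ratio of 11.6. One at 139467673 to 139476079 of chromosome 5 had 9.64, and one at 78310165 to 78328429 of chromosome 13 had 9.08, which with Tbx3 and Sox2 made up the 5 highest. The region on chromosome 13 adjoins the region of Nr2f1, a nuclear receptor gene, which starts at 78328510 and had a ratio of 1.74.

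Less extreme ratios were found at Gbx2 and at the Cdkn2a and Cdkn2b pair. Gbx2 is a homeobox gene of the hindbrain that is also expressed in naive embryonic stem cells, and in its region on chromosome 1 (91817547 to 91840739) MES Mel18 covered 98.0% and ESC Mel18 26.1%. Cdkn2a and Cdkn2b encode inhibitors of the cell cycle and are classic PRC1 targets. Their region on chromosome 4 (88931282 to 88957468) was covered to 90.6% by MES Mel18, 19.3% by RYBP and 28.6% by ESC Mel18. Expression of these genes was not analysed here.

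ESC Mel18 covered more than MES Mel18 in 44 broad regions (7.0%), against 28.2% of narrower ones. Of the 44, 37 were under 8000 bp wide and 1 was 20000 bp or wider. MES Mel18 covered a median of 70.9% of the 44, Cbx2 88.9%, Ring1b 69.4%, RYBP 61.5% and ESC Mel18 89.0%. The wide one held Zic2 on chromosome 14 (122866966 to 122891272), with 75.9% cover by MES Mel18 and 80.7% by ESC Mel18. The lowest ratio, 0.181, was that of the region of Dusp4, a phosphatase of ERK and other MAP kinases, on chromosome 8 (35867678 to 35873742). MES Mel18 covered 1046 bp and ESC Mel18 5785 bp, and the MES Mel18 and Cbx2 peaks there ranked in the lowest score quartile of their lists. Dusp4 also had the lowest Cbx2 cover of all, at 29.4%, while Ring1b covered 81.0% and RYBP 92.8%. At Sp5, a target gene of WNT signalling, on chromosome 2 (70308973 to 70316362), MES Mel18 covered 4209 bp and RYBP 6305 bp, and ESC Mel18 covered the whole 7390 bp.

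After Dusp4, the lowest ratios were 0.366 at 48153086 to 48158728 of chromosome 7 and 0.379 at 51117803 to 51126479 of chromosome 6. Next came 0.388 at 9991822 to 9997592 of chromosome 16 and 0.428 at 43295778 to 43300956 of chromosome 10. The regions on chromosomes 7 and 6 were among the 5 with the lowest Cbx2 cover too, at 60.9 and 47.1%. In that on chromosome 6, no base was shared by all lists. Cbx2 also covered little, 57.4%, of 56611369 to 56617724 on chromosome 17, and 59.5% of 60290602 to 60295756 on chromosome 10.

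The shared core, as a share of width, was largest at Tbx2. Tbx2, a T-box repressor of the heart's atrioventricular canal, lay in 17829 bp on chromosome 11 (85641903 to 85659731), of which all 5 lists shared 89.7%. MES Mel18 covered 17268 bp there and ESC Mel18 16451 bp, so that Tbx2 had a ratio of 1.05 where Tbx3 had 45.1. The region of Cbx2 and Cbx8, which encode subunits of PRC1, followed on chromosome 11 (118894364 to 118922290, 27927 bp) with a core of 85.9%. MES Mel18 covered 27156 bp of it, RYBP 24255 bp and ESC Mel18 25132 bp. Tbx1, a T-box gene of the second heart field and pharynx, on chromosome 16 (18579320 to 18592526), had a core of 84.0%. A core of 84.6% at 127948024 to 127954258 of chromosome 2 and one of 82.6% at 74977932 to 74987673 of chromosome 11 completed the 5 largest.

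RYBP cover ran from 8.97 to 100% over the broad regions. The 100% was that of the region on chromosome 17 from 56611369. RYBP covered 98.5% of the region on chromosome 2 from 127948024, 97.4% of 75442916 to 75448559 on chromosome 1 and 96.5% of 98461313 to 98466631 on chromosome 15, and Dusp4 followed with 92.8%. The lowest RYBP cover, 8.97%, was that of the region beside Nr2f1 on chromosome 13 from 78310165, where MES Mel18 covered 99.8%, Cbx2 98.0% and Ring1b 95.1%. At Olig3, a basic helix-loop-helix gene of the dorsal neural tube, on chromosome 10 (19071369 to 19080004), RYBP covered 852 bp or 9.87%, against 8537 bp of MES Mel18 and 5100 bp of ESC Mel18. RYBP covered 11.4% of 88001574 to 88012883 on chromosome 3, 14.5% of 85883206 to 85890717 on chromosome 17 and 14.8% of 84482581 to 84488803 on chromosome 13.

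**Figure D5:**
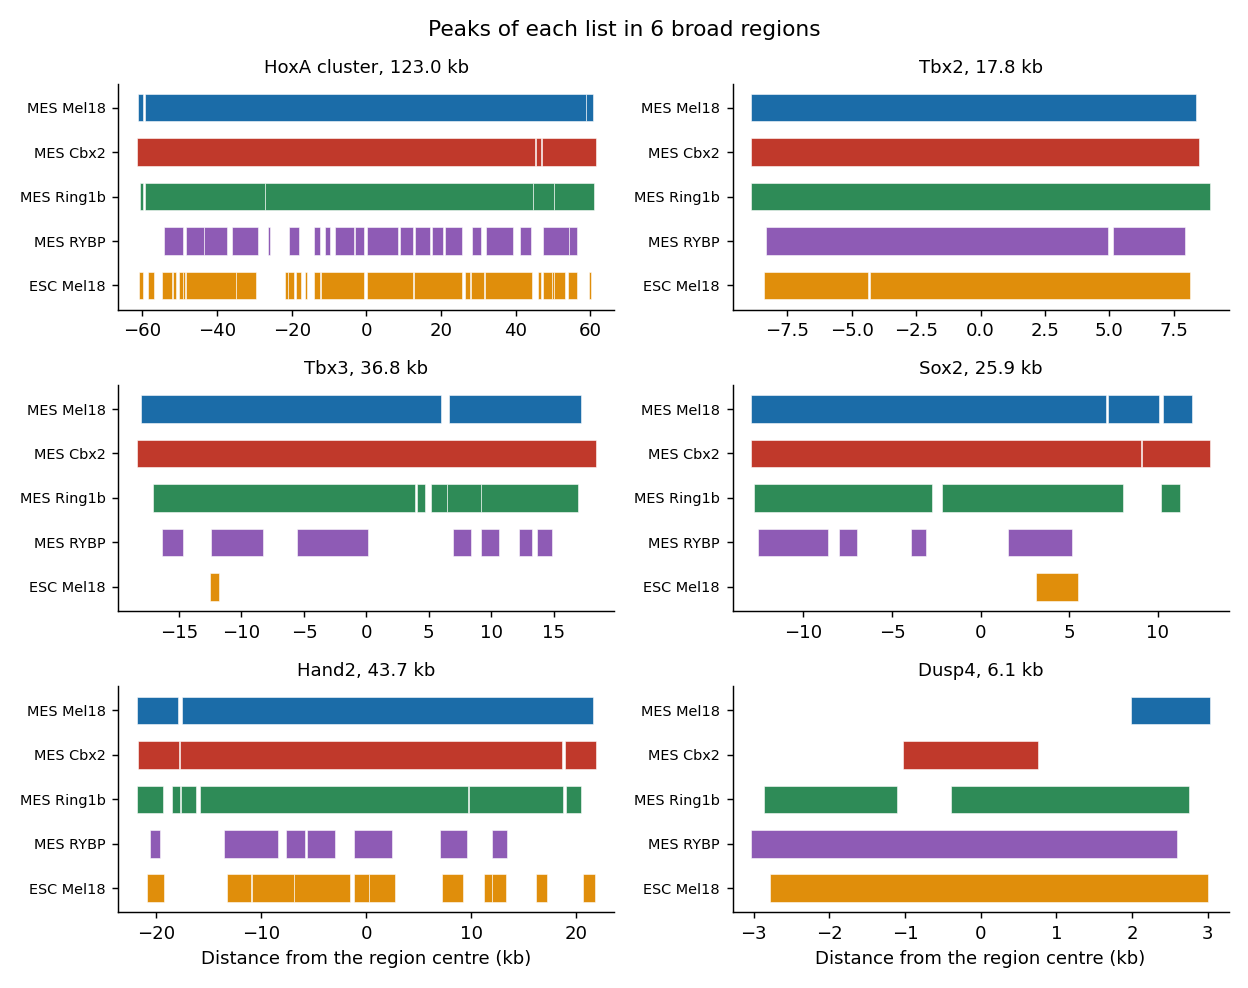
Peaks of each list (rows) in 6 broad regions, drawn to scale against the distance from the region centre (x axis, kb). MES Mel18, Cbx2 and Ring1b run through most of the Tbx3 and Sox2 regions, where ESC Mel18 has 1 peak each, and at Dusp4 RYBP and ESC Mel18 are the widest.

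Ring1b, the catalytic subunit, had its lowest cover, 17.9%, at 19886734 to 19892202 of chromosome 7, where MES Mel18 covered 28.6%. It covered 25.1% of 149403338 to 149409853 on chromosome 4, where MES Mel18 covered 44.3%, and 27.2% of 69646385 to 69651707 on chromosome 11, where MES Mel18 covered 58.5%. Cbx2 covered all of these 3 regions. Ring1b also covered 28.6% of 92890317 to 92895705 on chromosome 6 and 30.3% of the region on chromosome 10 from 60290602. The widest of these 5 regions measured 6516 bp.

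Of the 52 regions given a gene name, 41 had MES Mel18 above ESC Mel18 and ESC Mel18 above RYBP in covered length. RYBP covered more than ESC Mel18 in 7, at Tbx3, Sox2, Gbx2, Otp, En2, Lbx1 and Tfap2a. ESC Mel18 covered more than MES Mel18 in 4, at Zic2, Sp5, Dusp4 and Bdnf. MES Mel18 was thus above ESC Mel18 in 48 of the 52, against 93.0% of all 629 broad regions. RYBP was below ESC Mel18 in 45 of the 52, against 76.0% of the 629. The 52 were picked by hand, so these counts describe no trait particular to them. At Pax6, a homeobox gene of eye and forebrain, MES Mel18 covered 97.4%, RYBP 67.6% and ESC Mel18 79.9% of 35094 bp. At Gata4, a zinc finger factor of the heart, MES Mel18 covered 90.6%, RYBP 45.1% and ESC Mel18 70.6% of 19791 bp. At Foxf1, a forkhead gene of lateral mesoderm, MES Mel18 covered 84.5%, RYBP 69.5% and ESC Mel18 70.3% of 23134 bp. At Nkx2-2, a homeobox gene of the ventral neural tube, MES Mel18 covered 100%, RYBP 78.5% and ESC Mel18 86.6% of 18963 bp. These genes were named after their values were seen.

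Broad regions lay on every chromosome from 1 to 19, and 79 of the 629 were on chromosome 2. That chromosome also held 175 of the 1880 regions with all 5 lists. Members made up between 22.2% of the regions with all 5 lists on chromosome 6 and 46.1% on chromosome 12. Some stood side by side: 150 members lay within 50 kb of another, in 70 groups, a count that was not made for narrower regions. The largest such group held 6 regions on chromosome 1 between 74814225 and 74941634, among them the region given the name of Wnt6, a WNT ligand gene. Without an mm9 annotation, it was not settled whether Wnt6 lies in that region or in an adjoining one of the group. In the region so named (74832283 to 74856668) MES Mel18 covered 99.6%, Ring1b 69.7%, RYBP 41.1% and ESC Mel18 43.5%.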

How the data were processed

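Peak lists of 5 ChIP-seq samples were used, with 1 sample per list, each from 5 ug of antibody per the labels. The deposited files gave the start and end of each peak, a name that carries the tag of MACS and a score. The build was mm9 and the tools named were Bowtie and TopHat, per the submitters' processing notes. For the peak calls, version, settings and control are not given in the sources used here. Scores as deposited started at 50 and had a ceiling at 3100 in part of the lists. It was used only to rank peaks within a list, in 4 quartiles of all its peaks.

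Peaks that overlapped by 1 bp or more were merged on chromosomes 1 to 19, and starts are given counted from 1. Cover and shared bases were computed with Python 3.11.15, numpy 2.4.6, pandas 2.3.3 and scipy 1.17.1, and drawn with matplotlib 3.10.9. Merging and cover were tested on simulated data (300 of 300 regions recovered) and checked against bedtools 2.31.1, with 0 of 59355 values that differed. With 1 sample per list no test was run. Exact Clopper-Pearson 95% intervals of shares cover counting only, and regions are not replicates.

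Regions picked by rule were the 10 widest and those with the 5 highest and lowest MES to ESC ratios and RYBP covers. The rules also took the 5 lowest Ring1b and Cbx2 covers, the largest cores and the regions at the threshold. Other regions described, among them those of Uncx, Otp and Bdnf, came from none of these rules. They are examples named with their values known. Members and lists were chosen with earlier results of these data known. The rule had asked for an mm9 annotation before naming a gene. None was used here, so names rest on general knowledge of mm9 and were given after values were seen. All 52 regions so named had their genes on the same chromosome in RefSeq GRCm38.p6, and all 35 neighbouring pairs stood in the same gene order. Such a check cannot tell a gene from its close neighbour, as at Wnt6. The 4 Hox regions among the 10 widest are the one count of a gene family given, and it rests on these names.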

Additional observations from a re-analysis of the deposited data

How the results depend on the processing

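No paired analysis was possible because each list had 1 sample. With a width threshold of 3000 bp there were 1332 regions, where MES Mel18 covered a median of 85.9%, Cbx2 98.1%, Ring1b 74.1% and RYBP 54.7%, with a ratio of MES to ESC Mel18 of 1.33, and longer MES Mel18 in 84.4%. With 10000 bp there were 224 regions, with medians of 95.1% for MES Mel18, 87.0% for Ring1b and 67.5% for ESC Mel18, a core of 49.6%, and longer MES Mel18 in 98.7%. With the highest-scoring 50% of peaks per list, Cbx2 cover was 99.7%, RYBP cover 46.8% and the core 41.9%. With peaks within 1 kb joined, MES Mel18 covered 87.0%, Cbx2 97.9%, Ring1b 76.6% and ESC Mel18 58.6%, and the core was 42.7%. With the 3679 highest-scoring peaks of every list, Ring1b cover was 78.5%, RYBP cover 46.6% and the core 41.7%. With regions drawn from Cbx2, Ring1b and RYBP only, Cbx2 cover was 100% and Ring1b cover 82.6%. With regions drawn without Cbx2, chosen after the data were examined, cover was 99.7% for MES Mel18, 90.1% for Ring1b, 57.2% for RYBP and 71.8% for ESC Mel18, and the core 50.2%. Of the 90 recomputed values, the other 59 stayed within 1.5 times (counts) or within the 95% interval of the reported value. Among them were all values with 500 bp required of each list, with chromosome X added and with 4 regions at single peaks of 50000 bp or more left out. The requirement of 500 bp could change nothing, since the shortest cover by any list in a broad region was 574 bp. Fewer peaks or other region edges change cover by construction, and other causes were not tested. The unknown read depth limits every length given here.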

Other observations

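A further member lay on chromosome 17 from 39979601 to 39985967 (6367 bp), where mm9 is known to carry a ribosomal RNA repeat, at which reads from many copies can be placed on 1 site. MES Mel18 covered 65.3%, Cbx2 100%, Ring1b 89.0% and RYBP 88.6% of it, and ESC Mel18 89.5%. Ring1b, RYBP and ESC Mel18 had a top-quartile peak there, while the best MES Mel18 and Cbx2 peaks were in the second lowest quartile. Whether these peaks reflect binding was not tested.

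RYBP cover differed between other developmental regulators in regions of 22910 to 28602 bp. RYBP covered 74.9% of the 26497 bp at Uncx, a homeobox gene of somites, and 73.4% of the 22910 bp at Dlx1, a gene of forebrain interneurons. It covered 7041 bp of the 25108 bp at Neurod2, a basic helix-loop-helix gene of neurons, and 43.8% of the 28602 bp at Gata3, a zinc finger factor. ESC Mel18 covered 83.6% at Uncx, 79.4% at Dlx1, 41.0% at Neurod2 and 72.8% at Gata3. At Otp, a homeobox gene of the hypothalamus, MES Mel18 covered 8177 bp and ESC Mel18 1698 bp, a ratio of 4.82. At Bdnf, a neurotrophin gene, MES Mel18 covered 3789 bp and ESC Mel18 5449 bp, a ratio of 0.695.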
